A study of Rattus norvegicus with 6 samples.

Results

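Glypican 4 (Gpc4) and thrombospondin 1 (TSP1) are both secreted by astrocytes, and the mRNA of neurons given one protein was compared here directly with that of neurons given the other. The comparison used 4 of the 6 arrays of the study, chosen by their titles: 2 arrays of rat retinal ganglion cell (RGC) neurons treated with Gpc4 and 2 of RGCs treated with TSP1. Per the labels, the neurons came from Sprague Dawley rats at postnatal day 6 and spent 12 days in culture, in medium holding the survival factors BDNF and CNTF, before 12 hours with one of the proteins. The other 2 arrays came from untreated RGCs (Alone), which stayed out of the difference and served to estimate the spread and to show where the untreated level lay. Per the methods, the RGCs were purified from retinas by immunopanning, after a lectin dish that takes up microglia and fibroblasts. His-tagged Gpc4 had been made in HEK293 cells, a line derived from human embryonic kidney, and captured from their medium with nickel beads, and TSP1 was recombinant mouse protein. Each array carried RNA of 2 pooled wells, and replicates 1 and 2 of every group came from 2 separate RGC cultures. Unless stated otherwise, each p-value below rests on how far the differences between groups varied between these 2 cultures. That variation was taken from the gene itself and, with more weight, from all measurements together. A shift between the cultures that all groups shared is not counted in it. The number of arrays limits the precision.

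Gpc4 is a heparan sulfate proteoglycan, a protein with long sulfated sugar chains that can hold growth factors such as bone morphogenetic proteins (BMPs) at the cell surface, and neurons recognize glypicans through receptor protein tyrosine phosphatases. TSP1 is a matrix protein whose receptor on neurons is α2δ1, a calcium channel subunit. Gpc4 is known to bring AMPA-type glutamate receptors to the synapse, whereas synapses formed with TSP1 lack them. BMPs act through receptors that phosphorylate SMAD1, SMAD5 and SMAD9, and cells answer with more Id proteins, which block other transcription factors, and with more of the pathway's own inhibitors, such as noggin (Nog) and SMAD7.

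Neurons given Gpc4 had more mRNA than neurons given TSP1 for the BMP target genes Id1, Id2, Id3, Id4, Smad7, Smad9 and Nog, for the repressor Hes1, for the neuropeptides Avp and Trh, and for Nptx1 and Syndig1, which act in AMPA receptor clustering. They had less of the injury and stress genes Il24 and Atf3. In all of these genes the untreated neurons lay near TSP1. Among them, Id4, Nptx1, Il24 and Atf3 did not pass when the pairing by culture was left out of the test. A further group, led by the methyltransferase Inmt and the matrix genes Lum and Dcn and in the opposite direction by the matrix genes Tnc and Postn, also separated the treatments. There the untreated neurons lay nearer Gpc4, although for many of its genes they lay between the treatments. In Tnc, for example, Gpc4 was below and TSP1 above them. No gene of that group passed when the pairing by culture was left out. None of 107 listed genes for transmitter receptors, presynaptic release and postsynaptic scaffolds passed the test. Of all genes, 0.366% passed as higher with Gpc4 and 0.0492% as lower, so few or no calls would fall among 107.

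The deposited values are log2 signals of 31042 probe sets, each probe set being several short oligonucleotides against 1 transcript, and a difference of 1 is 2-fold. Differences were tested with limma, a linear model that shares the spread across probe sets, with the culture as a block, and a probe set was called where its adjusted p was below 0.05. By this rule 80 probe sets differed, 0.258% of those tested. Of these, 70 (0.226%) were higher with Gpc4 and 10 (0.0322%) were lower, and 69 of the 80 carry a single gene symbol, for 54 genes that were higher and 8 that were lower. Without the block 19 probe sets passed, 0.0612%, all higher with Gpc4 and all among the 80. They stand for 16 genes: Avp, Cxxc5, Disp3, Fam167a, Hes1, Id1, Id2, Id3, Islr2, Lratd1, Nog, Samd11, Smad7, Smad9, Syndig1 and Trh. With the block and any 1 of the 6 arrays left out, 0 probe sets passed, and an unadjusted p under 0.05 was then reached by 1131 to 1840 probe sets against 2054 with all arrays. Without the block, 13 passed when an Alone array was left out and 2 (Nog and Smad9) when any Gpc4 or TSP1 array was.

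The 80 differences had the same sign in both cultures, and the smallest was 0.63 on the log2 scale (1.55-fold). Both Gpc4 arrays lay above both TSP1 arrays for 64 of the 70 higher probe sets, against 14.6% of all probe sets, and both lay below for all 10 of the lower ones, against 15.5%. The calls were made on these same values and favour differences that agree between the cultures, so these counts are not separate evidence. The 6 called probe sets whose arrays overlapped belong to Ccnd1, Cryab, Gbp2, Mgp, S100a6 and Thbs2. Across all probe sets the difference in culture 1 and that in culture 2 correlated at r = 0.26 (Spearman's rho 0.11), and among those with a mean log2 value of at least 6 at r = 0.43. Probe sets are not independent of one another, and the 2 differences share no array. Of 251 probe sets with a difference of at least 0.58 (1.5-fold) in culture 1, 250 had a difference other than 0 in culture 2, and 206 of these (82.4%) had the same sign there. Of the 29192 probe sets with a difference other than 0 in both cultures, 53.0% had the same sign.

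**Figure D1:**
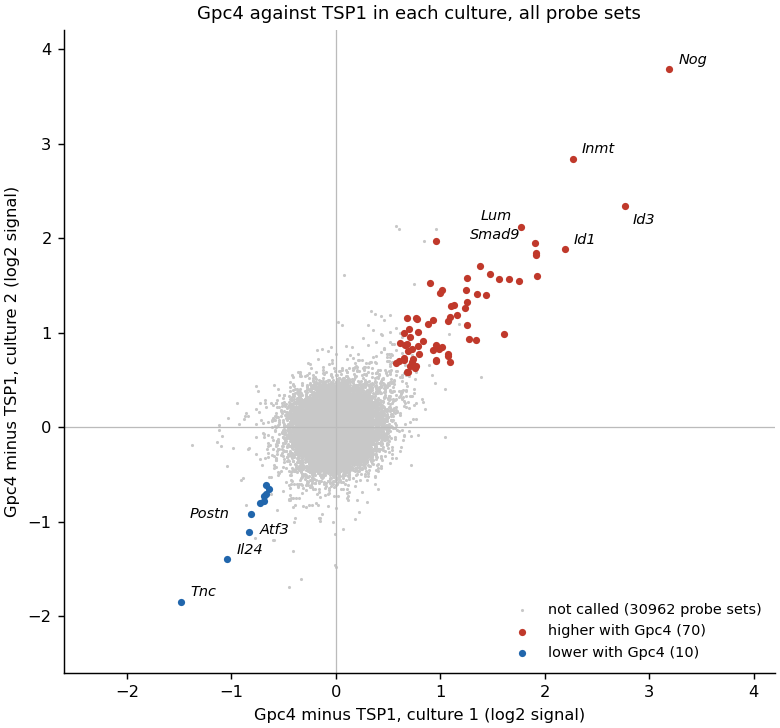
Gpc4 minus TSP1 in culture 1 (x axis) and in culture 2 (y axis), in log2 signal, with 1 point per probe set. The 70 probe sets called higher with Gpc4 (red) lie in the upper right, with Nog at 3.19 and 3.79, the 10 called lower (blue) lie in the lower left, with Tnc at -1.48 and -1.85, and the probe sets not called (grey) gather around 0.

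The cells carried the markers of RGCs. Of 22 RGC identity genes 18 were measured and 0 were called, with differences from -0.20 to 0.18. Over all 14217 genes 0.366% were called higher and 0.0492% lower. A count of 0 calls, in this list or those below, therefore says little about the members. Across the 6 arrays Sncg read 13.92 to 14.03 and Slc17a6, the vesicular glutamate transporter of these neurons, 13.19 to 13.26, whereas Tbr1 and Opn4, which mark subsets of RGCs, lay below the array medians of 5.96 to 5.99. Of 17 measured microglia and macrophage genes 0 were called. Their median was -0.23, the lowest of the lists, and their summed linear signal was 1321 and 897 with Gpc4, 2073 and 914 with TSP1 and 1502 and 820 in Alone, so that the TSP1 array of culture 1 stood highest. The part of microglia in the results was not tested. Astrocyte and Müller glia genes had 0 calls of 17 and a median of 0.01. Gfap, the filament of astrocytes, read 5.50 and 5.65 with Gpc4 and 4.83 and 5.18 with TSP1 (0.57, adjusted p = 0.17).

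Noggin, a secreted protein that binds BMPs and blocks them, separated the treatments more than any other named gene. Its log2 signal was 8.95 and 9.09 with Gpc4, 5.76 and 5.30 with TSP1, and 4.90 and 4.91 in Alone, in the order culture 1, culture 2. The Gpc4 arrays were far above the others, and the difference from TSP1 was 3.49 ± 0.14 (SE, adjusted p = 0.00029). The files hold no detection call, so a value below the array medians, such as that of Nog with TSP1, may be background, and a difference that involves such a value is given as log2 signal, which can be smaller than the difference in mRNA. Linear folds are therefore given only for genes above the medians in both groups.

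The Id genes encode proteins that pair with basic helix-loop-helix transcription factors and keep them off DNA. Id3 read 10.16 and 10.52 with Gpc4 and 7.39 and 8.18 with TSP1, with Alone at 7.88 and 8.40, a 5.88-fold difference (2.56 ± 0.12, SE, adjusted p = 0.00029). Id1 read 9.91 and 10.06 with Gpc4, against 7.72 and 8.18 with TSP1 and 7.86 and 8.20 in Alone. Id2 read 9.75 and 10.07, against 7.83 and 8.23 with TSP1 and 7.91 and 8.03 in Alone. In all of them the 2 Gpc4 arrays stood above the other 4, and the difference between Gpc4 and TSP1 was 4.10-fold for Id1 and 3.68-fold for Id2. A further probe set of Id2 differed by 1.42. Id4 differed less, by 0.63 and 0.69 in 2 of its 4 probe sets, from 9.78 and 9.63 with TSP1 to 10.36 and 10.31 with Gpc4 in the brightest, while the other 2 differed by 0.07 and 0.55 and did not pass. Id4 did not pass without the block either (adjusted p = 0.068 and 0.14).

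Smad9, which carries the BMP signal into the nucleus, read 8.90 and 8.93 with Gpc4, 6.99 and 6.98 with TSP1 and 6.76 and 6.86 in Alone. The 2 arrays of each group lay close together, with Gpc4 far above, and the difference was 3.81-fold (adjusted p = 0.00029). Smad7, which blocks the receptors, read 7.76 and 7.87 with Gpc4, 6.66 and 6.59 with TSP1 and 6.01 and 6.37 in Alone. Here the TSP1 arrays also lay above Alone, by 0.44, which did not pass (adjusted p = 0.66), and the difference between the proteins was 2.28-fold. The dim further probe sets of Smad7 and Smad9 differed by 0.07 to 0.12. Hes1, a repressor that answers to Notch and also to BMPs, read 7.52 and 7.63 with Gpc4 and 5.86 and 6.06 with TSP1, both Gpc4 arrays being higher, a difference of 1.62 (adjusted p = 0.0010).

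Of 24 genes listed as BMP and TGF-β targets, 21 were measured. With Gpc4 8 of them were higher than with TSP1 (Nog, Id1, Id2, Id3, Id4, Smad7, Smad9 and Hes1) and 0 were lower. The list was written with earlier results of these data known, so this count is a description and not separate evidence. The median difference over the 21 genes was 0.26 (-0.01 over all 14217 genes), where 52 genes (0.366%) were called higher and 7 (0.0492%) lower with 1 probe set per gene. Bambi, a decoy receptor, and Hey1, a repressor, differed by 0.60 and 0.57 and missed the threshold (adjusted p = 0.072 for both). Smad6, an inhibitory SMAD like Smad7, differed by 0.01, Msx1 and Msx2 by 0.02 and -0.02, and the matrix gene Ccn2, a TGF-β target, by -0.52 (adjusted p = 0.40). The summed linear signal of the 21 genes (2 to the power of each log2 value) was 10621 and 11916 in the Gpc4 arrays, against 6328 and 7918 in the TSP1 arrays and 5557 and 6472 in Alone.

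The secreted antagonists did not move as a family. Of 19 measured BMP and activin antagonists, 2 were called, Nog and Sostdc1, and the median over the 19 was -0.07. Sostdc1, which inhibits BMPs and Wnts, read 7.56 and 8.49 with Gpc4 and 6.00 and 6.92 with TSP1, and 6.04 and 7.41 in Alone. It was higher in culture 2 than in culture 1 under every treatment, so that the Gpc4 arrays stand above TSP1 in each culture by 1.56 and 1.57, and the 2.96-fold difference (adjusted p = 0.0042) did not pass without the block (adjusted p = 0.93). Follistatin (Fst), Bmper, Chrd and Grem1 differed by -0.36, -0.26, 0.16 and 0.43 and were not called. Follistatin-like 3 (Fstl3), which binds activin, read 6.78 and 7.42 with Gpc4 and 7.45 and 8.50 with TSP1, lower by 0.88 with Gpc4, and missed the threshold (adjusted p = 0.083). Among 28 measured ligands, receptors and signaling SMADs, Smad9 alone was called. Smad1 and Smad5, which share its role, differed by -0.18 and 0.01, Smad4 by -0.07, the receptors Bmpr1a and Bmpr2 by -0.11 and -0.21, and the ligands Bmp2, Bmp4 and Bmp6 by 0.08, 0.12 and -0.61.

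**Figure D2:**
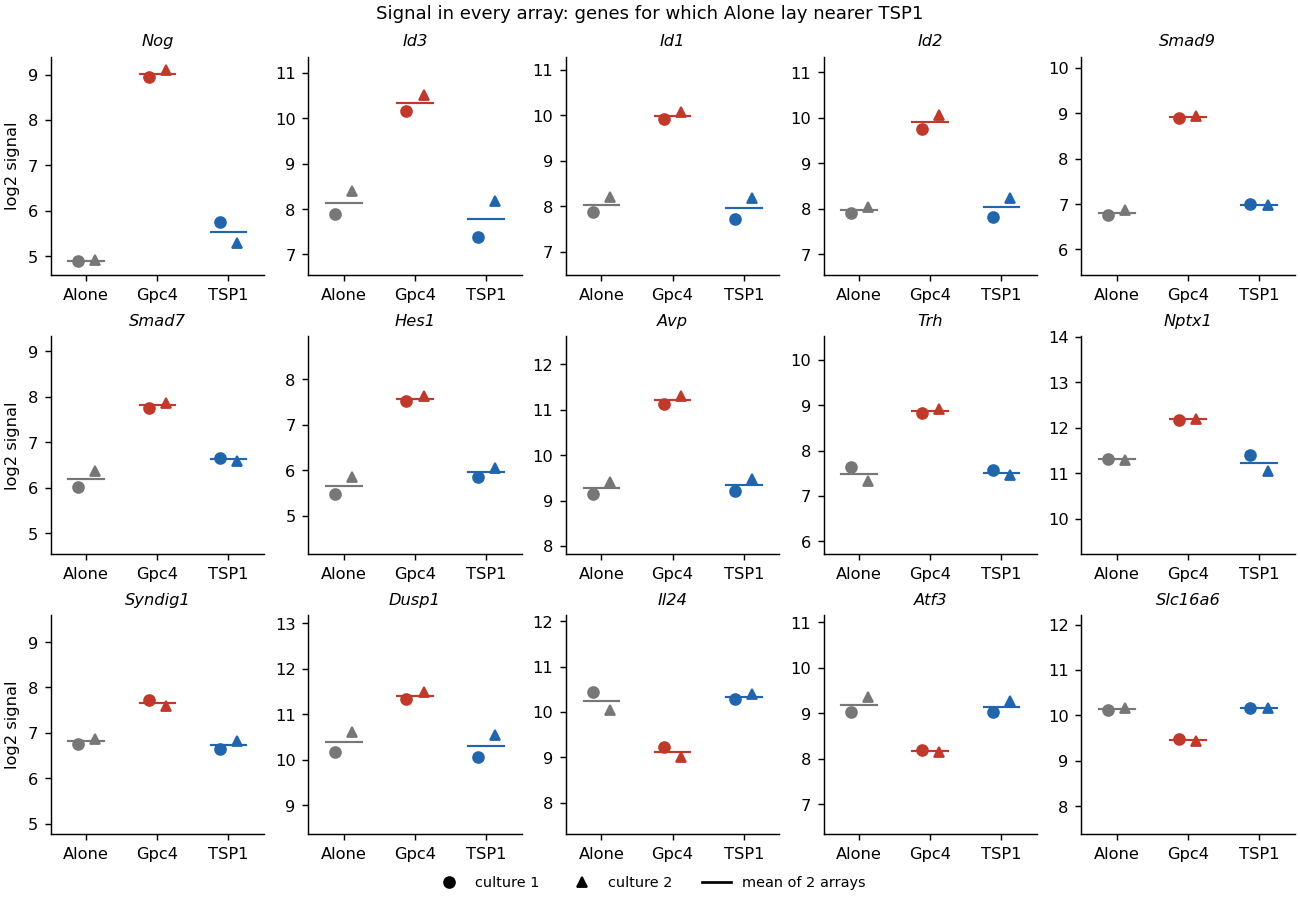
Log2 signal (y axis, the same span of log2 units in each panel) in the Alone, Gpc4 and TSP1 arrays for 15 genes, with culture 1 as circles, culture 2 as triangles and the mean of the 2 arrays as a line. For the 12 genes from Nog to Dusp1 both Gpc4 arrays lie above the other 4, and for Il24, Atf3 and Slc16a6 both lie below.

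Where these genes move together, their promoters may be read for the letters that the pathway's factors bind. The 250 bases before each start site were taken from the NCBI RefSeq promoter table (GRCr8) and searched on both strands. GGCGCC, a GC-rich palindrome bound by SMAD1 and SMAD5, was found in 13 of the 32 genes with a listed promoter among those higher with Gpc4 whose untreated level lay nearer TSP1, or 40.6%, against 9.72% of all 27457 genes in the table. Those promoters were also richer in G and C, with a median of 61.6% against 51.2%, and the table includes genes that were not measured here. The genes are Adam17, Cachd1, Chst8, Ctxnd1, Disp3, Dusp1, Gbx2, Ifitm10, Nog, Smad7, Smad9, Syndig1 and Trh. Of the genes higher with Gpc4 whose untreated level lay nearer Gpc4, 1 of 9 held GGCGCC, and of the lower genes 1 of 6. The shorter SMAD box GTCTG was found in 11 of the 32, or 34.4%, against 44.8% of all genes. A match shows letters, not a bound site, and whether base composition carries the difference was not tested. The stretches below show the letters in Nog and Smad9, the 2 genes that passed without the block whichever array was left out, and in Disp3, which holds 3 copies in 250 bases (2 of them in the stretch printed), with the palindrome in capitals. Id1 is printed beside them since its difference is as large as that of Smad9 and its 250 bases hold no copy.

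Nog, chr10:74627512-74627611, minus strand: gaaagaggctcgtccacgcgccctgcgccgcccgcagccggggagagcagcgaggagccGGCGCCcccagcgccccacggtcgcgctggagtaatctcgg

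Smad9, chr2:141106568-141106667, plus strand: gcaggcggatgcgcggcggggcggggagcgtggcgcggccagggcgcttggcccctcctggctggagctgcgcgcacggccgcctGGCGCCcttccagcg

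Disp3, chr5:164003951-164004100, minus strand: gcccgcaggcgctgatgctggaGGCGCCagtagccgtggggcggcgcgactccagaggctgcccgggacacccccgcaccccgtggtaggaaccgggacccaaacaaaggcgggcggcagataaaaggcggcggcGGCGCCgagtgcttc

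Id1, chr3:161671464-161671563, plus strand: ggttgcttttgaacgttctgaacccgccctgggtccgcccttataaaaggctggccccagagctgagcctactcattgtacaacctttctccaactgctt

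The copy begins 51 bases before the start site in Nog and 15 bases before it in Smad9, and the copies in Disp3 begin at 222, 128 and 15 bases. Disp3, a membrane protein of the Dispatched family, read 7.58 and 7.47 with Gpc4 and 6.42 and 6.28 with TSP1, with Alone at 6.35 and 6.45. Both Gpc4 arrays stood above the rest (2.26-fold, adjusted p = 0.0042), and the dim further probe set of Disp3 differed by 0.16. Hes1 has no GGCGCC in its window and instead holds 2 copies of TGGGAA, the letters bound by RBPJ, the DNA-binding partner of Notch, which 23.2% of all genes hold at least once. Dusp1 holds TGACGTCA, the full cAMP response element, found in 1.78% of all genes, beside 1 copy of GGCGCC. The stretches of Hes1 and Dusp1 are printed with TGGGAA and TGACGTCA in capitals, and the GGCGCC of Dusp1 is left in lower case.

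Hes1, chr11:84213126-84213185, minus strand: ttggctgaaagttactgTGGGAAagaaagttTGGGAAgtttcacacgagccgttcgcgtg

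Dusp1, chr10:17184673-17184772, plus strand: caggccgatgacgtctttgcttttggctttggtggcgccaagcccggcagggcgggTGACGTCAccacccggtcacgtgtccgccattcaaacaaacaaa

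Of 21 measured genes of the Notch pathway and the Hes and Hey repressors, Hes1 alone was called, and the median difference was 0.06. Hey1, at 0.57, was the next highest and missed the threshold (adjusted p = 0.072). Hes5, a further Notch-driven repressor, differed by 0.11, Nrarp, a feedback inhibitor of Notch, by 0.26, Hey2 by 0.36 and the receptor Notch1 by -0.22.

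Of 26 measured neuropeptide precursors, 2 were called, both higher with Gpc4. Vasopressin (Avp), the hormone of water balance, read 11.12 and 11.30 with Gpc4, 9.20 and 9.48 with TSP1 and 9.14 and 9.41 in Alone, a 3.66-fold difference (adjusted p = 0.00029). Thyrotropin-releasing hormone (Trh) read 8.82 and 8.91 with Gpc4, 7.57 and 7.46 with TSP1 and 7.64 and 7.33 in Alone, a 2.55-fold difference (adjusted p = 0.0042). In both the Gpc4 arrays stood apart and the other 4 overlapped. Dynorphin (Pdyn) and enkephalin (Penk) differed by 0.68 and 0.46 and did not pass (adjusted p = 0.15 for both), and oxytocin (Oxt), the gene next to Avp in mammalian genomes, read 4.80 to 4.94 in these 4 arrays and differed by 0.06. The median over the 26 was -0.02.

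Nptx1, or neuronal pentraxin 1, is a secreted protein that gathers AMPA receptors at synapses. It read 12.18 and 12.19 with Gpc4, 11.40 and 11.05 with TSP1 and 11.32 and 11.29 in Alone. Both Gpc4 arrays were above the other 4, by 1.95-fold over TSP1 (adjusted p = 0.021, and 0.068 without the block). Syndig1, a membrane protein that associates with AMPA receptors, read 7.72 and 7.59 with Gpc4 and 6.65 and 6.82 with TSP1, 1.89-fold higher (adjusted p = 0.019, and 0.044 without the block). They were the 2 called of 12 measured genes of pentraxins and AMPA receptor clustering. The pentraxin receptor Nptxr differed by -0.02, Olfm1, a secreted partner of AMPA receptors, by 0.03, the scaffolds Grip1 and Pick1 by -0.20 and 0.04, and the median was -0.01.

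The receptors themselves did not differ by the test. The AMPA receptor subunits Gria1, Gria2, Gria3 and Gria4 differed by 0.06, -0.16, -0.08 and -0.08 between Gpc4 and TSP1. The auxiliary subunits Cacng2 and Cacng3 differed by -0.10 and -0.21, and the lowest adjusted p among the 15 measured genes of the AMPA receptor list was 0.69. Shisa8, of a family of AMPA receptor auxiliary proteins, was not in that list and was called. It read 8.79 and 8.81 with Gpc4 and 8.14 and 7.81 with TSP1, 1.77-fold higher (adjusted p = 0.036, and 0.22 without the block). Its dim further probe set differed by 0.34 and did not pass. Gria2 as an example read 10.48 and 10.28 with Gpc4 and 10.56 and 10.52 with TSP1. Over 5 lists of AMPA, other glutamate, and GABA and glycine receptors, presynaptic release and postsynaptic scaffolds, the 107 measured genes differed by -0.33 (Gabra2) to 0.33 (Neto2) with a median of -0.04, and the lowest adjusted p was 0.43. The 3 phosphatases that bind glypicans, Ptprd, Ptprf and Ptprs, differed by -0.18, -0.05 and 0.03.

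Of the genes related to the added proteins and of their receptors, 1 was called. None of 17 measured glypicans, syndecans and heparan sulfate enzymes was called. The neurons' own Gpc4 mRNA read 6.15 and 6.58 with Gpc4 protein and 5.72 and 6.10 with TSP1, a difference of 0.46 (adjusted p = 0.45). Among 16 measured thrombospondins and their receptors Thbs2 was called, at 6.04 and 6.97 with Gpc4 and 5.43 and 6.08 with TSP1, a difference of 0.75 whose arrays overlap (adjusted p = 0.039). Cacna2d1, which encodes α2δ1, differed by -0.22, and the integrin subunits Itgb1 and Itgav by 0.16 and -0.38.

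Of 24 measured immediate early genes, which neurons switch on with activity, Dusp1 was called higher with Gpc4 and Atf3 lower. The median was 0.14, and 17 of the 24 differences were above 0, against 6749 of the 14217 of all genes. Dusp1, a phosphatase that switches off MAP kinases, read 11.34 and 11.48 with Gpc4, 10.07 and 10.55 with TSP1 and 10.17 and 10.60 in Alone. The Gpc4 arrays lay above the others in both cultures, by 2.14-fold over TSP1 (adjusted p = 0.010, and 0.22 without the block), and its further probe set differed by 1.30. Egr4, Nr4a1, Egr1 and Fos differed by 0.56, 0.62, 0.48 and 0.42 (adjusted p from 0.091 to 0.50), Arc by 0.01 and Bdnf by -0.36. The other 15 measured MAP kinase feedback genes were not called. Among them Dusp6, which answers to ERK, differed by -0.04 and Spry2 by 0.08.

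The 8 genes called lower with Gpc4 were Tnc, Il24, Atf3, Postn, Anxa3, Igf1, Slc16a6 and Gtdc1. Interleukin 24 (Il24), a cytokine, read 9.24 and 9.0 with Gpc4, 10.28 and 10.40 with TSP1 and 10.45 and 10.05 in Alone, lower with Gpc4 by 2.33-fold (adjusted p = 0.014). Atf3, a transcription factor of stressed and cut neurons, read 8.20 and 8.16 with Gpc4, 9.03 and 9.27 with TSP1 and 9.02 and 9.35 in Alone, lower by 1.96-fold (adjusted p = 0.020). Both Gpc4 arrays lay below the other 4 in each, and neither passed without the block (adjusted p = 0.058 and 0.091). They were the 2 called of 23 measured genes of axon injury and regeneration, whose median was -0.04. Jun and Sprr1a, which also rise after axon injury, differed by -0.25 and -0.26, Sox11 by -0.26 and Gap43 by 0.01.

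Slc16a6, of the monocarboxylate transporter family, read 9.47 and 9.43 with Gpc4 and 10.16 and 10.16 with TSP1, and its further probe set fell by 0.64. Insulin-like growth factor 1 (Igf1) fell by 0.74 in 1 probe set, from 8.76 and 8.97 with TSP1 to 8.07 and 8.19 with Gpc4. Its other 2 probe sets differed by -0.57 and -0.74 and missed the threshold (adjusted p = 0.11 and 0.088), as did Deptor, an inhibitor of mTOR, at -0.59 (adjusted p = 0.071). Anxa3, a membrane-binding annexin, fell by 0.77 in 1 of 4 probe sets, and the other 3 differed by -0.10, -0.01 and 0.14. Gtdc1, a glycosyltransferase-like gene, fell by 0.65, with arrays at 7.64 and 7.50 against 8.28 and 8.16. Filling the list of lower genes to 15 by p gave, besides Deptor and Fstl3, also Stx11, Adra2a, Gpnmb, Klf6 and Tmcc3 with adjusted p from 0.083 to 0.12. Klf6 was listed on its dimmest probe set (-0.61), and its brighter ones differed by -0.20 and -0.205. The further probe set of Adra2a differed by -0.045 and that of Tmcc3 by -0.31.

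The untreated arrays place each difference. Of the 70 probe sets higher with Gpc4, 54 (40 named genes) had an Alone mean nearer TSP1, with a median of 1.02 for Gpc4 minus Alone and of 0.03 for TSP1 minus Alone. For the other 16 probe sets (14 named genes) Alone lay nearer Gpc4, with medians of 0.25 and -0.82. These 14 genes are Acss3, Cdk1, Cebpd, Col4a5, Cryab, Ctsc, Dcn, Frzb, Ifitm3, Inmt, Lum, Mgp, Olfml3 and S100a6. In the same fit Gpc4 minus Alone passed for 43 of the 54 probe sets, and TSP1 minus Alone for 3 of the 16. Of the 10 lower probe sets, 8 had an Alone mean nearer TSP1, and in Tnc and Postn it was nearer Gpc4. Both columns of differences share the Alone arrays, so they are given side by side and not set against each other in a test.

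**Figure D3:**
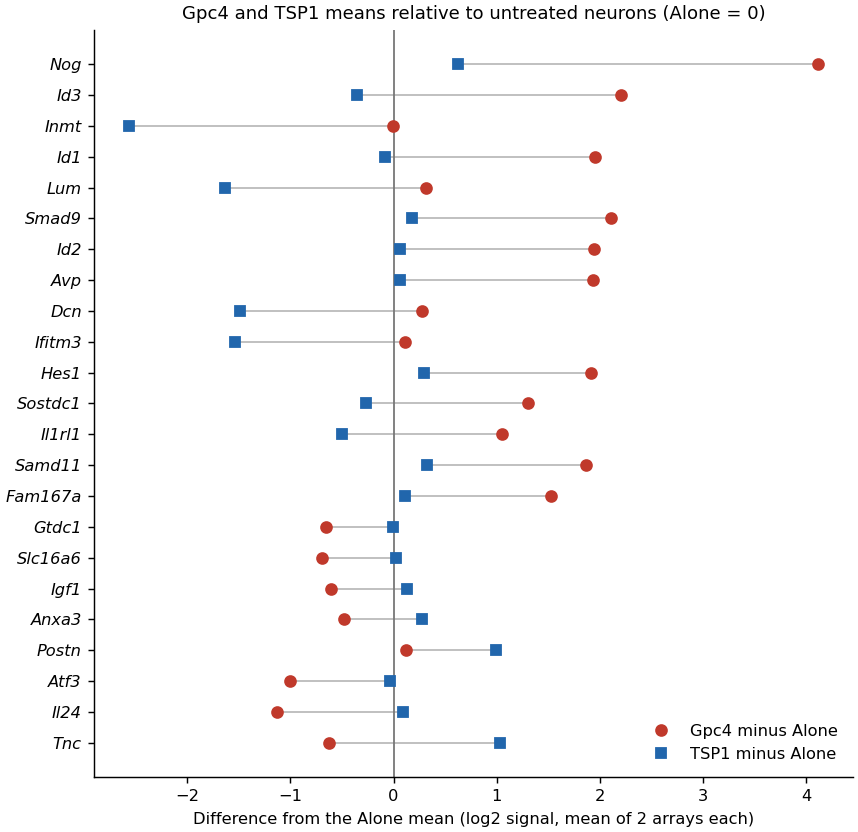
Difference from the Alone mean in log2 signal (x axis, mean of 2 arrays per group) for Gpc4 (red circles) and TSP1 (blue squares), for the 15 named genes most above and the 8 below TSP1 with Gpc4. For Nog, Id3, Id1, Smad9, Id2 and Avp Gpc4 lies away from 0, and for Inmt, Lum, Dcn and Ifitm3 TSP1 lies away from 0, by -2.57, -1.64, -1.49 and -1.54.

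In that group the largest difference was that of Inmt, a methyltransferase of small amines. Inmt read 7.34 and 8.36 with Gpc4, 5.07 and 5.52 with TSP1 and 7.44 and 8.28 in Alone, a difference of 2.56 ± 0.13 (SE, adjusted p = 0.00043, and 0.11 without the block). The TSP1 arrays were low and the Gpc4 and Alone arrays overlapped. Lumican (Lum) and decorin (Dcn), small proteoglycans that coat collagen, read 5.26 and 6.99, and 6.41 and 7.48, with Gpc4. With TSP1 Lum read 3.49 and 4.87 and Dcn 4.48 and 5.88, so that the TSP1 arrays were the lower pair, by 1.95 and 1.77 (adjusted p = 0.0086 and 0.026). Mgp, a matrix protein that binds BMPs, read 10.07 and 11.09 with Gpc4 and 9.36 and 10.44 with TSP1, 1.60-fold apart with overlapping arrays (adjusted p = 0.033). Ifitm3, an interferon-induced membrane protein, read 7.62 and 9.01 with Gpc4 and 5.87 and 7.46 with TSP1, 3.14-fold apart (adjusted p = 0.0024).

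Tenascin C (Tnc) and periostin (Postn), matrix proteins of growing and healing tissue, went the other way. Tnc read 6.26 and 7.03 with Gpc4, 7.74 and 8.88 with TSP1 and 6.67 and 7.88 in Alone, lower with Gpc4 by 3.17-fold (adjusted p = 0.0024). Postn read 7.62 and 8.24 with Gpc4, 8.43 and 9.16 with TSP1 and 7.42 and 8.19 in Alone, lower by 1.82-fold (adjusted p = 0.013). In both genes the TSP1 array was the highest of its culture.

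Of 29 measured fibroblast and matrix genes, 4 were higher with Gpc4 (Inmt, Lum, Dcn and Mgp), 1 was lower (Postn) and 24 were not called, with a median of 0.00. The collagens Col1a1, Col1a2 and Col3a1 differed by 0.06, -0.05 and -0.02, and fibronectin (Fn1) by -0.61 (adjusted p = 0.17). Pdgfra, a receptor of fibroblasts and glial precursors, differed by 0.58 in culture 1 and 2.13 in culture 2 and was not called (adjusted p = 0.35). The cultures also differed in the genes whose Alone level lay near Gpc4. Of those 16 probe sets 12 were more than 0.5 higher in culture 2, with a median shift of 1.01, against a median of 0.11 in the 54 probe sets whose Alone level lay near TSP1. The summed linear signal of the 29 genes was 7529 and 11990 in the Gpc4 arrays and 7159 and 12063 in the TSP1 arrays. In Alone it was 7936 and 12067, and in every group it was higher in culture 2. Bright members went opposite ways, Mgp being lower and Fn1 higher with TSP1 than with Gpc4, so a sum can hide differences of single genes. Fewer cells of such a type and less RNA per cell cannot be told apart in bulk RNA, and the part of other cells in these differences was not tested. No gene of this group passed without the block.

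**Figure D4:**
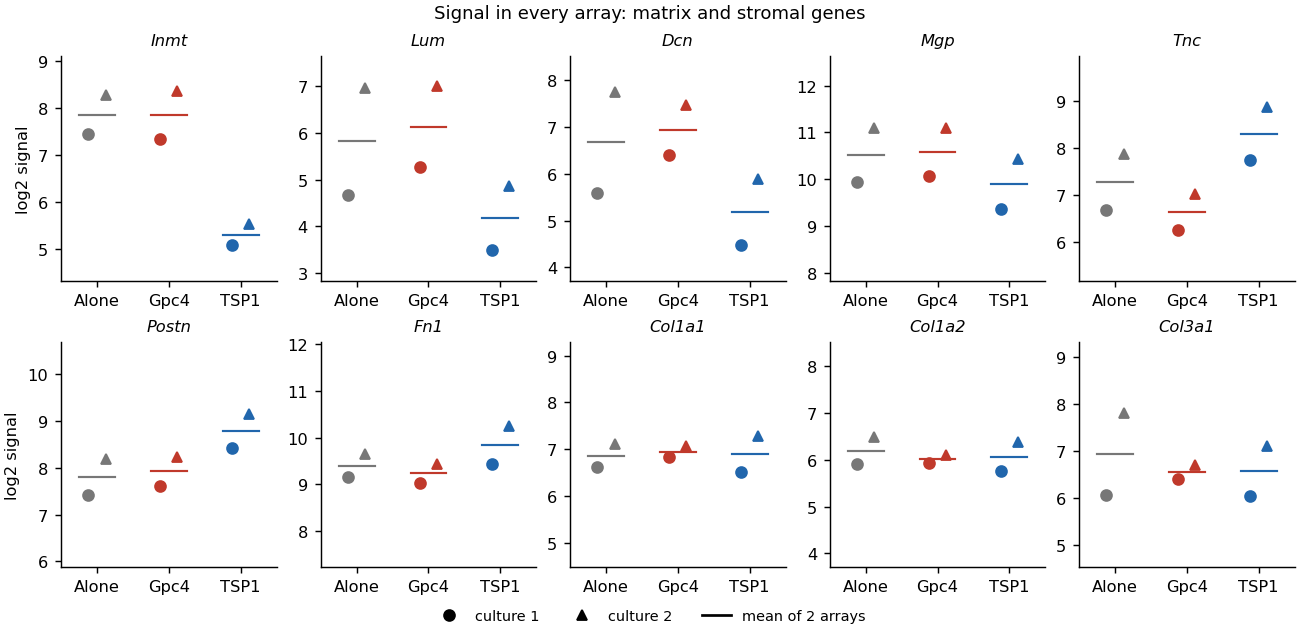
Log2 signal (y axis, the same span of log2 units in each panel) in the Alone, Gpc4 and TSP1 arrays for 10 matrix and stromal genes, with culture 1 as circles, culture 2 as triangles and the mean as a line. TSP1 is lowest in both cultures for Inmt, Lum, Dcn and Mgp and highest for Tnc, Postn and Fn1, while the means of the 3 collagens differ by at most 0.06 between Gpc4 and TSP1.

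Genes of other roles were called singly. Kdr, a receptor for VEGF, read 7.86 and 8.0 with Gpc4 and 6.77 and 6.83 with TSP1, 2.19-fold higher with Gpc4 (adjusted p = 0.017, and 0.11 without the block). Its dim further probe set differed by 0.06. Kdr was the only call among 16 measured pericyte and endothelial genes. Of these, 13 lay below the array medians in every group, among them Pecam1, an adhesion protein of vessel walls, at 3.27 to 3.72 over the 6 arrays. The neurotrophin receptor Ngfr was higher by 0.78, from 6.02 and 6.12 with TSP1 to 6.70 and 7.0 with Gpc4. It did not pass without the block (adjusted p = 0.34). Il1rl1, the receptor for interleukin 33, was higher by 1.55, from 5.34 and 6.37 to 6.82 and 7.99. It did not pass without the block (adjusted p = 0.82), and its dim further probe set differed by 0.225. Samd11, a nuclear protein, was higher by 1.54, from 5.42 and 5.57 to 6.80 and 7.28, and Fam167a by 1.42, from 7.88 and 7.95 to 9.32 and 9.35. Both passed with and without the block.

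In the Wnt list the secreted inhibitor Frzb was called (0.92, adjusted p = 0.034) among 24 measured genes. Its means with Gpc4 and TSP1 lay below the array medians, and its further probe set differed by 0.315. Frzb did not pass without the block (adjusted p = 0.33). Axin2, a target of the pathway, differed by 0.11. In the cell cycle list Cdk1, the mitotic kinase, was called (0.63, adjusted p = 0.047) among 30, from 5.05 and 5.45 with TSP1 to 5.73 and 6.03 with Gpc4, both below the array medians on average. Mki67 and Top2a, which mark dividing cells, differed by 0.15 and 0.21. Cyclin D1 (Ccnd1) differed by 0.69 in the called probe set of 3 and by 0.74 and 0.60 in the others. In the interferon, NF-κB and cytokine list Ifitm3 was called among 31 with 1 probe set per gene. Cebpd, a transcription factor of the same list, was called in 1 of 3 probe sets, at 5.39 and 5.77 with Gpc4, 4.13 and 4.69 with TSP1 and 5.53 and 5.86 in Alone. The TSP1 arrays were the low pair, by 1.17 (adjusted p = 0.0042), all group means lay below the array medians, and the other probe sets differed by 0.75 (adjusted p = 0.072) and -0.12. The list of unfolded protein response and chaperone genes held 1 call, Atf3, of 21 measured.

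**Figure D5:**
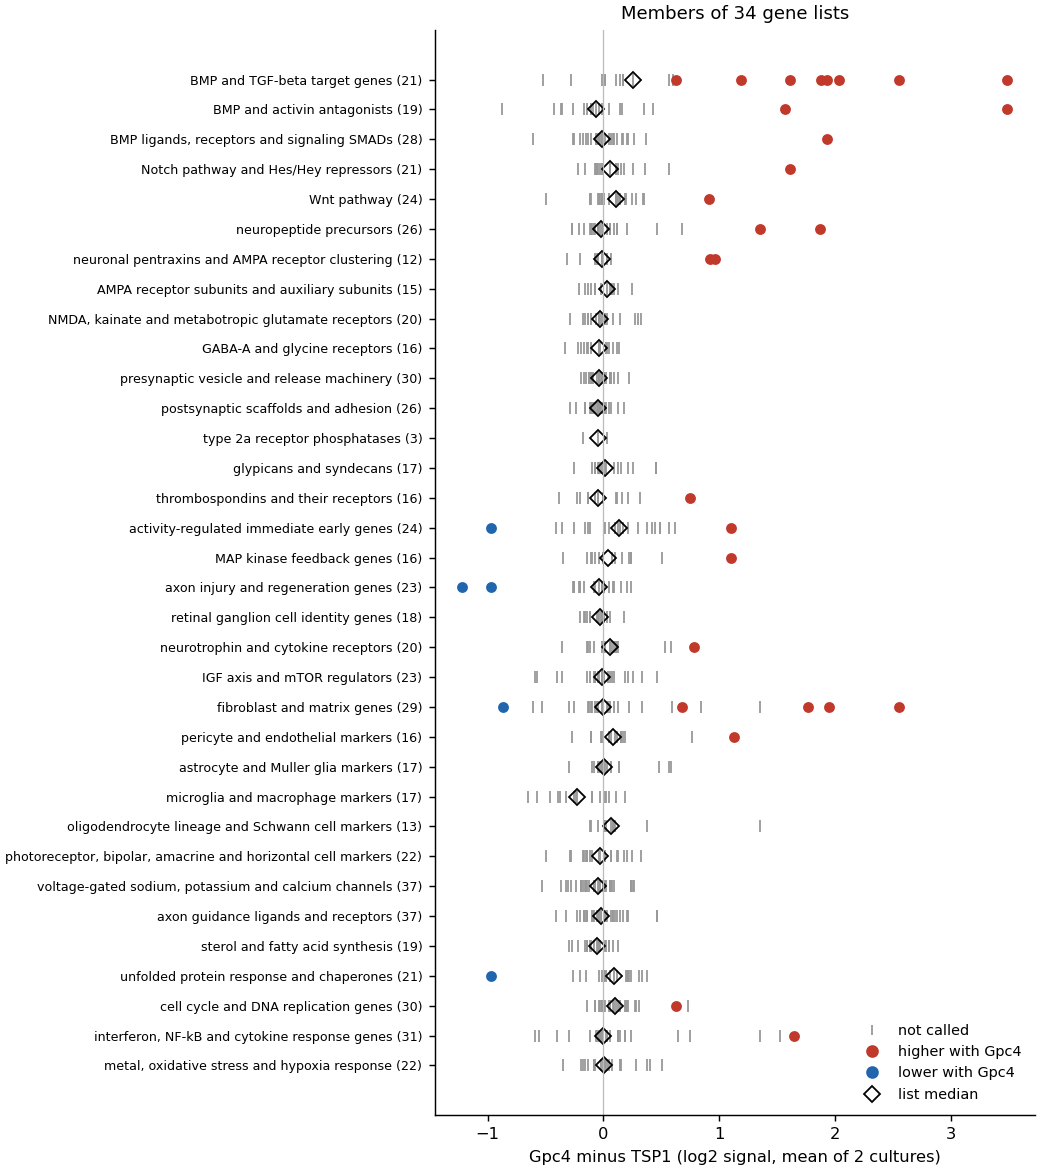
Gpc4 minus TSP1 in log2 signal (x axis, mean of 2 cultures) for the measured members of 34 gene lists, with members not called as grey ticks, called members as red (higher) or blue (lower) points and the list median as a diamond. The 8 calls of the BMP and TGF-β target list reach 3.49, and all list medians lie between -0.23 and 0.26.

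Counted with 1 probe set per gene, 17 of the 34 lists held no call. In 1 of these, the IGF axis and mTOR list, Igf1 was called on another of its probe sets, as described above. The lists with no call on any probe set include those of ion channels (37 measured), axon guidance (37), sterol and fatty acid synthesis (19) and metal, oxidative stress and hypoxia response (22). Of the 62 called genes, 30 were in a list and 32 in none. Among the latter were Cxxc5, a zinc finger gene that answers to BMPs, higher by 0.83 and 0.78 in 2 probe sets, Islr2, a membrane protein of growing axons, higher by 0.91, and Htr5b, a serotonin receptor, higher by 0.99 with the arrays of both groups below the array medians.

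A count with no test was also made. With at least 0.58 of the same sign required in both cultures, 67 genes (0.471%) were higher and 9 (0.0633%) lower with Gpc4, counted with 1 probe set per gene. This rule was chosen after the data were seen.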

How the data were processed

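Total RNA of 6 rat RGC samples was hybridized to Affymetrix Rat Genome 230 2.0 arrays. RMA in Affymetrix Expression Console was the authors' processing, with no version stated in the methods or labels. The table they deposited holds log2 signals, background corrected, normalized between arrays and rounded to 2 decimals. No sample was left out. RMA pulls dim signals together, which can shrink the differences of weakly expressed genes.

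Under R 4.3.3, limma 3.58.1 fitted Gpc4 minus TSP1 (lmFit, contrasts.fit and eBayes, two-sided) on all 6 arrays, with a mean per group and the replicate number as a block, with Benjamini-Hochberg adjustment across all 31042 probe sets. The methods state 2 separate cultures, and same-numbered arrays deviated together from their group means (r = 0.29, 0.35 and 0.37). The fit leaves 2 residual degrees of freedom, and the spread shared across probe sets counts as 5.70 more. It was tested on simulated data.

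Platform annotation gave 1 symbol to 20826 probe sets (14217 genes), several to 436 and none to 9780. In lists the probe set with the highest mean stood for a gene. Named were the 15 genes per direction with the largest called difference (filled by p where fewer), called list members and members of the lists described. Others were named after their values were seen. The comparison, its members and the lists were chosen with earlier results of these data known. Alternatives were the fit without the block, 4 arrays alone, a filter on low signals, 2 normalizations, a trended variance, the methods' t-test, other thresholds and leaving out arrays. Python 3.11.15 with matplotlib 3.10.9 drew the figures.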

Additional observations from a re-analysis of the deposited data

How the results depend on the processing

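The count of 80 probe sets (70 higher and 10 lower with Gpc4) rested on the replicate block and on the Alone arrays. Without the replicate block it was 19 (19 higher, 0 lower). With the 4 Gpc4 and TSP1 arrays alone it was 0 (0 and 0) with the block and 13 (13 and 0) without it. With the block and 1 array left out it was 0 to 0 for the total and for each direction, at 1 residual degree of freedom, and the lowest adjusted p was then 0.53 to 1.00. Without the block and 1 array left out, chosen after seeing the data, it was 2 to 13 (2 to 13 higher, 0 lower). A trended variance gave 136 (111 and 25), an adjusted p under 0.10 gave 121 (100 and 21), and keeping probe sets whose mean signal reached 6 (log2) gave 100, of them 23 lower. The methods' t-test gave 1433 at its unadjusted threshold (720 and 713) and 0 after Benjamini-Hochberg (0 and 0), and its paired form 1172 (586 and 586). Median centring and quantile normalization gave 74 and 79. None of the 69 called probe sets with a symbol changed sign in the other fits and tests, of which the filter on mean signal kept 60 of them. In most of these the difference is the same mean over the 2 cultures, so its sign could not change. Only the 2 normalizations and leaving out a Gpc4 or TSP1 array altered the difference itself. Signs were not tabulated for the fits without the block and with 1 array left out. Of the 69, 18 stayed past the threshold without the block, 65 with median centring, 67 with quantile normalization and 69 with a trended variance. Of the recomputed medians of gene lists, 17 moved by more than the spread between the cultures and 51 did not. The depth of the arrays is their signal over background, which the files do not give.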
